A study of Mus musculus with 18 samples.

Results

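A set of 38 mouse genes of mitosis and DNA replication was followed after knockdown of Esrrb in embryonic stem cells. The set was defined by gene name: every probe whose target name, ignoring case, was one of the 38 names was taken. The genes themselves were chosen with earlier results of these data known. The array lists the names in capitals (MYBL2, TOP2A, CDC20, CDC45L, RRM1), and they are written here in the mouse style, with CDC45L as Cdc45. A probe was found for 34 of these names among the 34325 target names on the array, and 29 of them had a probe bright enough to test. Of the 29, 2 are transcription factors of late cell cycle genes (Mybl2 and Foxm1), 13 act in mitosis and 14 in DNA replication.

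DNA replication is prepared in G1 phase, when the origin recognition complex, Cdc6 and Cdt1 load the Mcm2 to Mcm7 helicase onto DNA. Kinases then recruit Cdc45 and the GINS complex, and the enzymes of nucleotide supply and DNA synthesis are expressed with them under E2F factors at the passage from G1 to S phase. The genes of mitosis are expressed later, in G2 and M phase, when Mybl2 (B-Myb) and Foxm1 join the MuvB core at promoters that carry the CHR element and CCAAT boxes. Mouse embryonic stem cells divide rapidly with a short G1 phase, and Mybl2 is abundant in them.

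The cells were E14, a mouse embryonic stem cell line, grown on gelatin in medium with serum and the cytokine LIF. All groups were transfected with Lipofectamine 2000 and the pSUPER.puro plasmid, which carried a short hairpin RNA (shRNA). The target was Esrrb, a nuclear receptor without a known natural ligand that helps to hold the pluripotent state, or GFP in the controls. The groups were GFP shRNA and Esrrb shRNA at days 2, 4 and 6, with 3 biological replicates each according to the labels, giving 18 Illumina bead arrays of total RNA in 6 groups. The share of cells that took up the plasmid and any selection for it were not given in the labels used here. All Esrrb arrays carried the same shRNA label, so a loss of Esrrb and any other effect of that hairpin cannot be told apart.

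The median raw intensity of an array lay between 60.4 and 76.9, between 37.7% and 42.6% of the probes were detected per array, and each probe was read from a median of 37 beads. Each of the 3 BeadChips held 1 array of every group, and a group always took the same slot of a chip, so an effect of the slot and of the group cannot be told apart. The Esrrb probe was lower with Esrrb shRNA by 2.23 ± 0.11 (SE) on the log2 scale at day 2, by 2.72 ± 0.11 at day 4 and by 1.87 ± 0.11 at day 6 (limma, adjusted p from 3.89e-13 to 4.58e-11, n = 3 against 3). Of 9 embryonic stem cell markers, 8 had a probe and all 8 were detected, while 5 of 9 fibroblast and feeder markers, Col1a1, Col1a2, Col3a1, Lum and S100a4, were undetected on every array. The summed intensity of all 9, the 5 undetected included, was 2660 to 2774 with Esrrb against 3510 to 3983 with GFP shRNA at day 4, and 3007 to 3141 against 2164 to 2350 at day 6. A sum weighs bright probes most. Of the 4 tested, 2 were lower and 0 higher at day 4, and 2 lower and 1 higher at day 6 (limma, adjusted p under 0.05). Their median change at day 6 was -0.10. Of all target names tested, 10.8% were lower and 12.4% higher at day 4, and 20.7% and 19.9% at day 6. The summed intensity of all 7 trophectoderm markers, with Hand1 undetected throughout but included, was higher with Esrrb shRNA on every array of its day. It was 1145 to 1179 against 552 to 615 at day 2, 3383 to 3814 against 762 to 824 at day 4, and 9727 to 10010 against 1642 to 1713 at day 6. The summed intensity of the 8 stem cell markers was 19740 to 21610 with Esrrb shRNA and 24760 to 25810 with GFP shRNA at day 6. The part of these shifts in the results that follow was not tested.

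Promoter sequences are shown because the mitosis and replication genes are known to be controlled through different elements. RefSeq promoters (GRCm38.p6, 250 bases before to 50 after the start) were matched for 30 of the 38 genes. The letters of the CHR element, TTTGAA or TTCGAA on either strand, were in 11 of 14 mitosis promoters (78.6%), 4 of 15 replication promoters (26.7%) and 19.2% of all 32851 promoters. CCAAT on either strand was in 13 of 14 mitosis promoters (92.9%), 11 of 15 replication promoters (73.3%) and 37.4% of all. The E2F-type letters TTCCCGC or TTGGCGC, on either strand, were in 1 of 14 mitosis promoters (7.14%), 9 of 15 replication promoters (60.0%) and 6.81% of all. An E2F-type match can overlap a CCAAT match, as it does in Prim1. Both CHR and CCAAT letters were in 78.6% of the mitosis, 20.0% of the replication and 7.52% of all promoters. A match is a description of the letters and not a site of binding.

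The 120 bases before the start are printed 5′ to 3′ on the strand of the gene, with the CHR, CCAAT and E2F-type letters of either strand in capitals, for Mybl2 (chr2:163054515-163054634, plus strand), Cdc20 (chr4:118437344-118437463, minus strand), Top2a (chr11:99024190-99024309, minus strand), Rrm1 (chr7:102441575-102441694, plus strand) and Prim1 (chr10:128015095-128015214, plus strand). These are the transcription factor, 2 mitosis genes and 2 replication genes that the results return to.
Mybl2: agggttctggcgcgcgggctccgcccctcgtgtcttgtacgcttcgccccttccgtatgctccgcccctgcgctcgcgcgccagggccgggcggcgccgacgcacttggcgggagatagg
Cdc20: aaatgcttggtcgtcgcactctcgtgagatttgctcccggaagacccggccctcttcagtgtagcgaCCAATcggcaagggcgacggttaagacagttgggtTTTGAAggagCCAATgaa
Top2a: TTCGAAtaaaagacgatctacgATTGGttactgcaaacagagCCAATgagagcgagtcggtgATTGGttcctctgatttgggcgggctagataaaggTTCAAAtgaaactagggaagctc
Rrm1: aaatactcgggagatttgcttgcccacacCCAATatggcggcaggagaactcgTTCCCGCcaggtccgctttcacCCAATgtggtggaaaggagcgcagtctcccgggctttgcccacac
Prim1: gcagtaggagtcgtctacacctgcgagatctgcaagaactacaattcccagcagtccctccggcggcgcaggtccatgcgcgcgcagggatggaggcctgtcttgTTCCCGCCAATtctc
The Mybl2 sequence has none of these letters in capitals, the Cdc20 and Top2a sequences have CHR letters near the start with CCAAT letters, and the Rrm1 and Prim1 sequences have E2F-type and CCAAT letters and no CHR letters. Near its end the Mybl2 sequence holds ttggcgg, which differs from the searched TTGGCGC in the last letter. Other E2F-type letters were not looked for, so the lack of a match does not show that Mybl2 lacks an E2F site.

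Which of these genes changed with the Esrrb shRNA was asked first. Mybl2 fell at every day, to 57.1% of the GFP shRNA level at day 2, 44.3% at day 4 and 43.2% at day 6, while Foxm1 did not pass the test on any day. Of 13 mitosis genes, 1 fell and 1 rose at day 2, 1 fell at day 4 and 4 fell at day 6. None of the 4 passed when each array was centred on its median in place of quantile normalization. Of 14 replication genes, none was called at days 2 and 4, and 3 rose and 1 fell at day 6. Of all target names tested, 5.43% fell and 6.41% rose at day 2, 10.8% and 12.4% at day 4, and 20.7% and 19.9% at day 6. A gene counts as called when its adjusted p in limma, fitted over all 15162 tested target names, was under 0.05. Shares of all target names are of called names, and no such share was counted at an unadjusted p. Values are log2 intensities after background correction and quantile normalization, so levels are compared between arrays of 1 probe and not between probes, and p-values measure only the spread between these arrays.

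**Figure D1:**
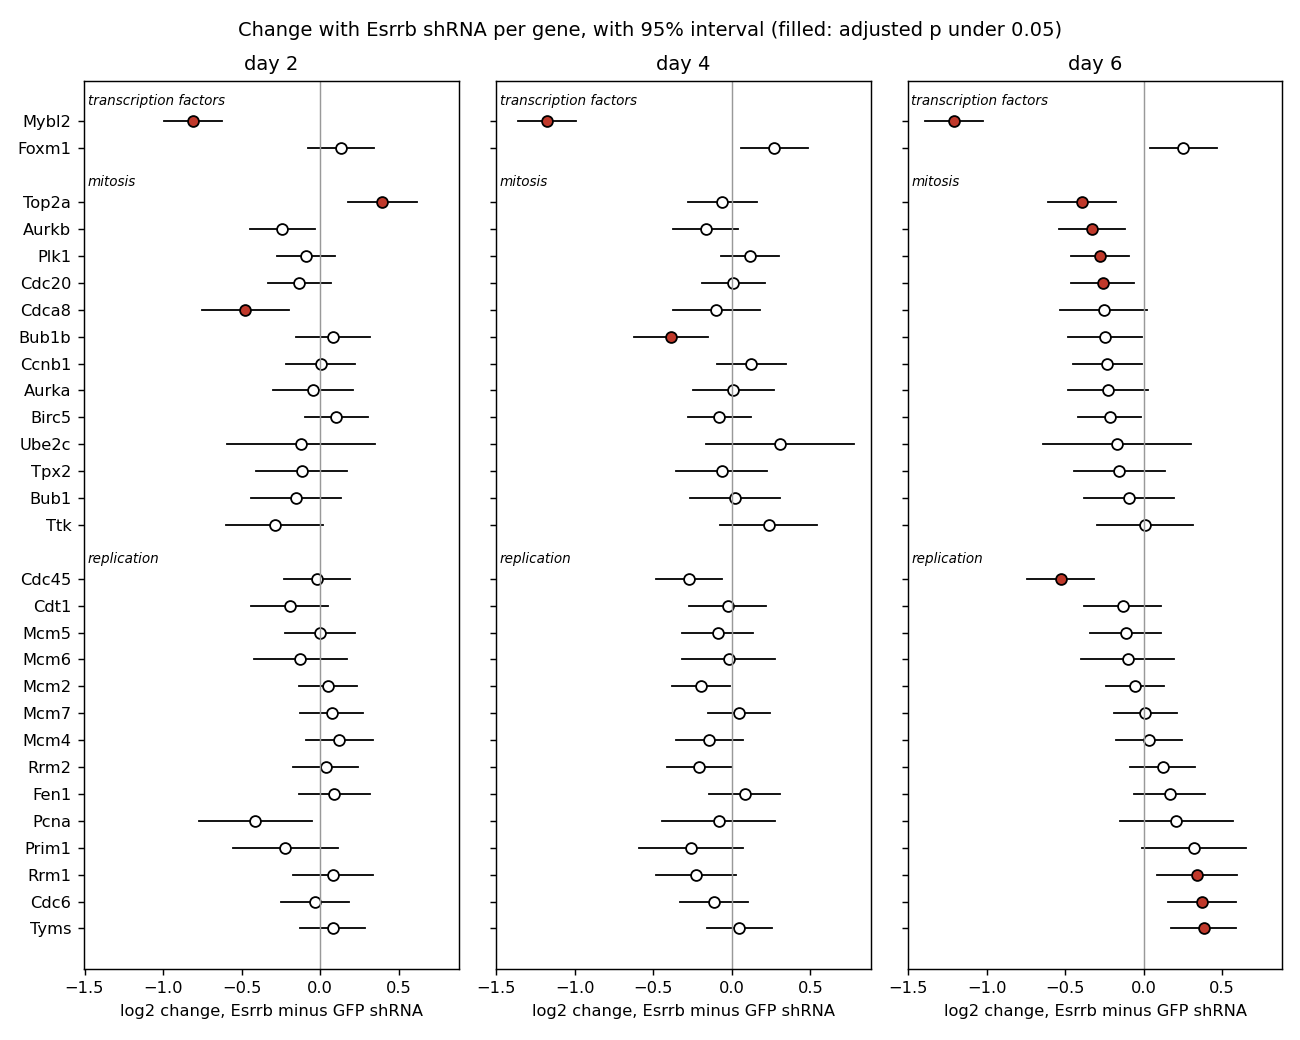
Log2 change of each of the 29 tested genes with Esrrb against GFP shRNA at days 2, 4 and 6 (points) with its 95% interval (lines), by role. Filled points passed an adjusted p of 0.05; Mybl2 is filled and below -0.80 at all 3 days, and the mitosis genes lie at or left of 0.01 at day 6, while Rrm1, Cdc6 and Tyms are filled to the right of 0.

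Mybl2, a member of the Myb family that works with MuvB at late cell cycle promoters, gave log2 intensities of 10.86, 10.95 and 10.80 on the GFP arrays of day 2 and 10.14, 9.99 and 10.05 on the Esrrb arrays. At day 4 the values were 10.79, 10.71 and 10.75 with GFP shRNA and 9.53, 9.67 and 9.52 with Esrrb shRNA. At day 6 the values were 10.70, 10.86 and 10.64 with GFP shRNA and 9.49, 9.61 and 9.47 with Esrrb shRNA. Every Esrrb array lay below every GFP array of its day. The change was -0.81 ± 0.09 (SE, limma adjusted p = 2.23e-06) at day 2, -1.17 ± 0.09 (4.07e-09) at day 4 and -1.21 ± 0.09 (1.28e-09) at day 6. A second Mybl2 probe fell too, by 0.74, 1.00 and 1.24 on the log2 scale at the 3 days. Within the 3 BeadChips the change ran from -0.96 to -0.72 at day 2, from -1.26 to -1.03 at day 4 and from -1.24 to -1.17 at day 6. The fall at day 6 was larger than at day 2 by 0.40 ± 0.13 (adjusted p = 0.0242), and that difference missed the threshold without GFP replicate 3 or Esrrb replicate 1 of day 2 and without GFP replicate 2 or Esrrb replicate 3 of day 6, at -0.45 to -0.34 over all arrays left out. In RNA from whole cultures, fewer cells of a type and less RNA per cell cannot be told apart.

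Foxm1, the forkhead factor that follows Mybl2 at mitotic promoters, gave 8.31, 8.06 and 7.99 with GFP shRNA and 8.20, 8.29 and 8.26 with Esrrb shRNA at day 2. At day 4 the values were 7.91, 7.80 and 7.61 with GFP shRNA and 8.13, 7.89 and 8.10 with Esrrb shRNA. At day 6 they were 7.94, 8.08 and 7.99 with GFP shRNA and 8.22, 8.26 and 8.28 with Esrrb shRNA. The groups overlapped at days 2 and 4, and the Esrrb arrays lay above the GFP arrays at day 6. The change was 0.13 (95% interval -0.08 to 0.35) at day 2, 0.27 (0.06 to 0.48, adjusted p = 0.0622) at day 4 and 0.25 (0.04 to 0.46, adjusted p = 0.0562) at day 6. Without background correction it passed the test at both later days, at 0.22 (adjusted p = 0.0403) and 0.21 (adjusted p = 0.032), so the call depended on the setting while the sign did not.

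**Figure D2:**
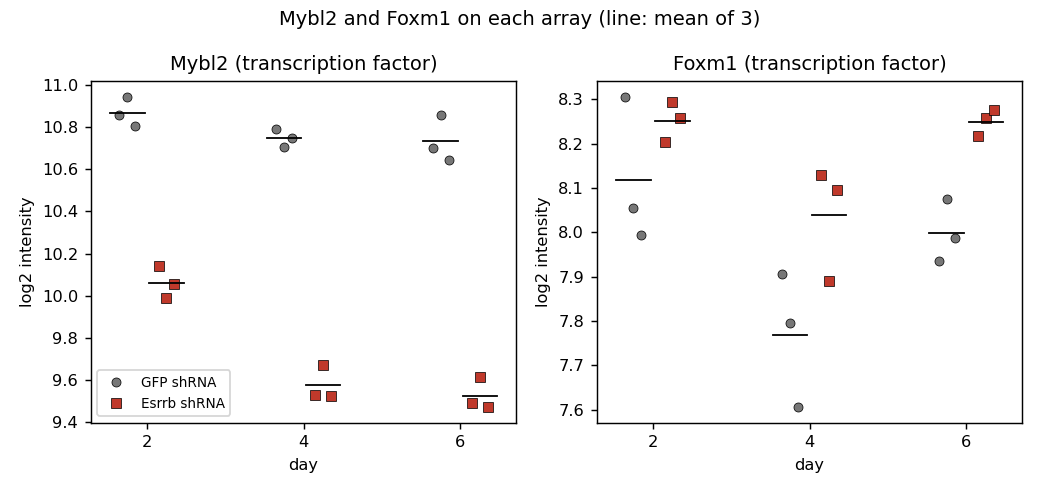
Log2 intensity of Mybl2 and Foxm1 on each of the 18 arrays by day, with GFP shRNA as circles, Esrrb shRNA as squares and a line at the mean of 3 arrays. The Mybl2 groups are apart at all 3 days, with Esrrb arrays at 9.47 to 10.14 and GFP arrays at 10.64 to 10.95; the Foxm1 groups overlap at days 2 and 4.

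Among the mitosis genes, 1 of 13 was lower and 1 of 13 higher at day 2, against 5.43% and 6.41% of all target names tested. Cdca8, the borealin subunit of the chromosomal passenger complex, was lower by 0.48 ± 0.13 on the log2 scale (adjusted p = 0.0216), and its other probe gave -0.13. Top2a, the topoisomerase that untangles chromosomes before they separate, was higher at day 2. Both calls at day 2 were lost with some single arrays left out: Cdca8 without GFP replicate 1 or Esrrb replicate 1 or 2 (-0.55 to -0.35 over all arrays left out), and Top2a without replicate 3 of either group (0.35 to 0.44). At day 4, 1 of 13 mitosis genes was lower and none higher, against 10.8% and 12.4% of all. Bub1b, a kinase-like protein of the spindle checkpoint, fell by 0.39 ± 0.11 on the log2 scale (adjusted p = 0.0165), a call lost without replicate 1 of either group of day 4 (-0.45 to -0.31) and with median centring (-0.26, adjusted p = 0.244). The other Cdca8 probe was called lower at day 4, at -0.38, where the first gave -0.10 with no call, and another Top2a probe higher, at 0.39. The median change of the 13 genes was -0.12 at day 2 and 0.01 at day 4, beside 0.00 over all target names at both days.

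At day 6, 4 of 13 mitosis genes were lower and none higher, against 20.7% and 19.9% of all target names. At an unadjusted p under 0.05 in limma 7 were lower, a count with no share of all target names to set beside it. The median change of the 13 was -0.23, with a range from -0.39 to 0.01, beside 0.00 over all. The 4 were Top2a, Aurkb, Plk1 and Cdc20. When each array was centred on its median in place of quantile normalization, none of the 4 passed, with Top2a at -0.27 (adjusted p = 0.0943), Aurkb at -0.25 (0.148), Plk1 at -0.17 (0.336) and Cdc20 at -0.15 (0.369).

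Top2a gave 11.33, 11.24 and 11.14 with GFP shRNA and 11.61, 11.62 and 11.67 with Esrrb shRNA at day 2, so the Esrrb arrays were above the GFP arrays. At day 4 the values were 11.91, 11.95 and 11.64 with GFP shRNA and 11.85, 11.74 and 11.71 with Esrrb shRNA, and the groups overlapped. At day 6 they were 12.12, 12.23 and 11.87 with GFP shRNA and 11.76, 11.67 and 11.61 with Esrrb shRNA, with every Esrrb array below every GFP array. The change went from 0.40 ± 0.10 (limma adjusted p = 0.0153) at day 2 through -0.06 at day 4 to -0.39 ± 0.10 (adjusted p = 0.00467) at day 6. The effect at day 6 differed from that at day 2 by -0.79 ± 0.15 (adjusted p = 0.000559). The 2 other Top2a probes did not share this course: 1 gave 0.05, 0.22 and 0.10 with no call, and the other gave 0.07, 0.39 (called higher) and -0.49 (called lower).

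Aurkb, the kinase of the chromosomal passenger complex, gave 9.92, 10.13 and 9.86 with GFP shRNA and 9.84, 9.69 and 9.67 with Esrrb shRNA at day 2. Day 4 gave 9.98, 9.93 and 9.75 against 9.79, 9.73 and 9.64. At day 6 it gave 10.12, 9.97 and 9.98 with GFP shRNA and 9.70, 9.81 and 9.58 with Esrrb shRNA. The Esrrb arrays were below the GFP arrays at days 2 and 6, and the groups overlapped at day 4. The change was -0.24 (95% interval -0.45 to -0.03) at day 2, -0.17 (-0.38 to 0.04) at day 4 and -0.33 ± 0.10 (adjusted p = 0.0122) at day 6, a call lost without GFP replicate 1 or Esrrb replicate 3 of day 6 (-0.38 to -0.27).

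Plk1, the kinase that drives entry into and passage through mitosis, gave 11.86, 12.01 and 11.87 with GFP shRNA and 11.79, 11.92 and 11.76 with Esrrb shRNA at day 2. Day 4 gave 11.67, 11.84 and 11.66 against 11.80, 11.90 and 11.83, again with overlap. At day 6 the GFP arrays read 12.05, 12.20 and 12.20 and the Esrrb arrays 11.85, 11.92 and 11.85. Only the day 6 groups were apart, with the Esrrb arrays lower. The change was -0.09 (95% interval -0.27 to 0.09), then 0.12 (-0.07 to 0.30), then -0.28 ± 0.09 (adjusted p = 0.0155), lost without GFP replicate 2 or 3 of day 6 (-0.33 to -0.25). Between days 4 and 6 the shRNA effect shifted by -0.39 ± 0.12 (adjusted p = 0.0389), which missed the threshold when any of 9 single arrays was left out (-0.45 to -0.36).

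Cdc20, the activator of the anaphase-promoting complex, gave 11.76, 11.90 and 11.59 with GFP shRNA and 11.68, 11.59 and 11.58 with Esrrb shRNA at day 2. On day 4 it gave 11.51, 11.45 and 11.59 against 11.64, 11.40 and 11.54. At day 6 the GFP arrays read 11.94, 11.99 and 11.87 and the Esrrb arrays 11.59, 11.76 and 11.67, so that the groups were apart. The change at day 6 was -0.26 ± 0.10 (adjusted p = 0.0348), and it was lost without GFP replicate 1 or 2 or Esrrb replicate 1 or 3 of day 6 (-0.31 to -0.22). The 2 other Cdc20 probes were called lower as well at day 6, at -0.33 and -0.37.

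The mitosis genes with the smallest change at day 6 were the checkpoint kinases Bub1 and Ttk, both dim. Bub1 gave 5.97, 5.93 and 5.52 with GFP shRNA and 5.92, 5.48 and 5.56 with Esrrb shRNA at day 2, then 5.56, 5.30 and 5.54 against 5.64, 5.31 and 5.51, then 5.63, 5.58 and 5.38 against 5.59, 5.37 and 5.36. Ttk gave 6.24, 6.00 and 6.05 against 5.58, 5.76 and 6.07 at day 2, then 5.84, 6.21 and 5.69 against 6.02, 6.12 and 6.30, then 6.08, 6.00 and 5.71 against 5.82, 6.14 and 5.85. The groups of both genes overlapped at all 3 days, with day 6 changes of -0.09 (95% interval -0.39 to 0.20) for Bub1 and 0.01 (-0.31 to 0.32) for Ttk. A second, dimmer Ttk probe was called higher at day 6, at 0.40.

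The other 7 tested mitosis genes lay between -0.26 and -0.15 at day 6 with no call. They are Cdca8, Bub1b, the mitotic cyclin Ccnb1, the spindle kinase Aurka, the passenger complex subunit Birc5 (survivin), the ubiquitin-conjugating enzyme Ube2c and the spindle assembly factor Tpx2. Other probes of 2 of them were called lower at day 6, with Birc5 at -0.34 on both and Cdca8 at -0.43. With the replicate number, which is the BeadChip, as a block, Ccnb1 also passed at day 6 (-0.23, adjusted p = 0.0331).

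Replication genes had no call among 14 at days 2 and 4, and at an unadjusted p under 0.05 there were 1 lower and 0 higher at day 2 and 3 lower and 0 higher at day 4 (limma). The medians of the 14 changes were 0.02 and -0.10. With the BeadChip as a block, Pcna, the sliding clamp of DNA polymerases, passed as lower at day 2 (-0.41, adjusted p = 0.0248). At day 6, 1 of 14 was lower and 3 were higher, again beside 20.7% and 19.9% of all, with a median change of 0.08 and a range from -0.53 to 0.38. The lower gene was Cdc45, and the higher ones were Tyms, Cdc6 and Rrm1.

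Cdc45, the helicase cofactor that marks activated origins, gave 8.20, 8.50 and 8.56 with GFP shRNA and 8.39, 8.34 and 8.47 with Esrrb shRNA at day 2. On day 4 it read 8.71, 8.89 and 8.75 against 8.52, 8.43 and 8.59. At day 6 the GFP arrays read 8.63, 8.56 and 8.46 and the Esrrb arrays 7.99, 8.09 and 7.98. The groups overlapped at day 2, and the Esrrb arrays were lower at days 4 and 6. The change was -0.02 (95% interval -0.23 to 0.19), then -0.27 (-0.48 to -0.06, adjusted p = 0.0564), then -0.53 ± 0.10 (adjusted p = 0.000259), and the effect at day 6 differed from that at day 2 by -0.51 ± 0.14 (adjusted p = 0.0125).

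Tyms, thymidylate synthase, gave 11.32, 11.37 and 11.18 with GFP shRNA and 11.34, 11.35 and 11.41 with Esrrb shRNA at day 2. Day 4 read 11.12, 11.01 and 11.18 against 11.36, 11.08 and 11.02. At day 6 the GFP arrays read 10.61, 10.66 and 10.57 and the Esrrb arrays 11.08, 11.05 and 10.86. The groups overlapped at days 2 and 4 and were apart at day 6, with the Esrrb arrays higher. The change was 0.08 (95% interval -0.13 to 0.29), 0.05 (-0.16 to 0.25) and 0.38 ± 0.10 (adjusted p = 0.00405). Of its other probes, 1 rose by 0.41 at day 6 and 1 gave 0.23 with no call.

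Cdc6, which loads the helicase, gave 9.87, 10.16 and 10.30 with GFP shRNA and 10.03, 10.19 and 10.03 with Esrrb shRNA at day 2. At day 4 it gave 9.78, 9.87 and 9.80 against 9.67, 9.77 and 9.67, with the Esrrb arrays below the GFP arrays. At day 6 it gave 9.01, 9.02 and 8.99 with GFP shRNA and 9.26, 9.53 and 9.35 with Esrrb shRNA, with the Esrrb arrays above. The change was -0.03 (95% interval -0.25 to 0.19), -0.11 (-0.33 to 0.10) and 0.37 ± 0.10 (adjusted p = 0.00711). The effect at day 6 was above that at day 4 by 0.48 ± 0.15 (adjusted p = 0.0322), which missed the threshold without any of 8 single arrays (0.41 to 0.54).

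Rrm1, the large subunit of ribonucleotide reductase, gave 10.40, 9.99 and 10.38 with GFP shRNA and 10.30, 10.24 and 10.47 with Esrrb shRNA at day 2. At day 4 it gave 10.34, 10.32 and 10.33 against 10.02, 10.02 and 10.26, with the Esrrb arrays below. At day 6 it gave 9.42, 9.59 and 9.74 against 9.72, 9.98 and 10.06, and the groups overlapped slightly, although on each BeadChip the Esrrb array was above the GFP array by 0.30 to 0.39. The change was 0.08 (95% interval -0.17 to 0.34), -0.23 (-0.49 to 0.03) and 0.34 ± 0.12 (adjusted p = 0.0331). The call at day 6 was lost without GFP replicate 1 or 2 or Esrrb replicate 2 or 3 of that day (0.26 to 0.44), and with median centring (0.38, adjusted p = 0.0507). The shift from day 4 to day 6 was 0.57 ± 0.17 (adjusted p = 0.033), missed without any of 9 single arrays (0.48 to 0.67).

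The helicase subunits Mcm4 and Mcm7 changed least at day 6. Mcm4 gave 12.82, 13.04 and 12.91 with GFP shRNA against 13.14, 13.04 and 12.95 with Esrrb shRNA at day 2, then 13.20, 13.23 and 13.25 against 13.11, 13.02 and 13.11, then 13.14, 12.89 and 12.99 against 12.89, 13.25 and 12.98. Mcm7 gave 12.08, 12.15 and 12.04 against 12.05, 12.28 and 12.16 at day 2, then 12.27, 12.08 and 11.96 against 12.12, 12.13 and 12.19, then 12.01, 12.03 and 11.92 against 11.88, 12.05 and 12.06. Mcm4 was apart at day 4 only, with the Esrrb arrays lower and no call, and Mcm7 overlapped throughout. The day 6 change was 0.03 (95% interval -0.18 to 0.25) for Mcm4 and 0.01 (-0.20 to 0.22) for Mcm7. A second probe of each was called lower at day 6, at -0.47 for a dimmer Mcm4 probe and -0.37 for Mcm7.

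The remaining 8 replication genes had no call at day 6. Prim1, the primase subunit, was at 0.32 and passed with the BeadChip as a block (adjusted p = 0.0236). Pcna was at 0.21, the flap nuclease Fen1 at 0.17 and the ribonucleotide reductase subunit Rrm2 at 0.12, while Cdt1, Mcm5, Mcm6 and Mcm2 lay between -0.13 and -0.06. The blocked fit changed these calls and otherwise left the calls of the 3 shRNA comparisons as they were for the 29 genes.

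**Figure D3:**
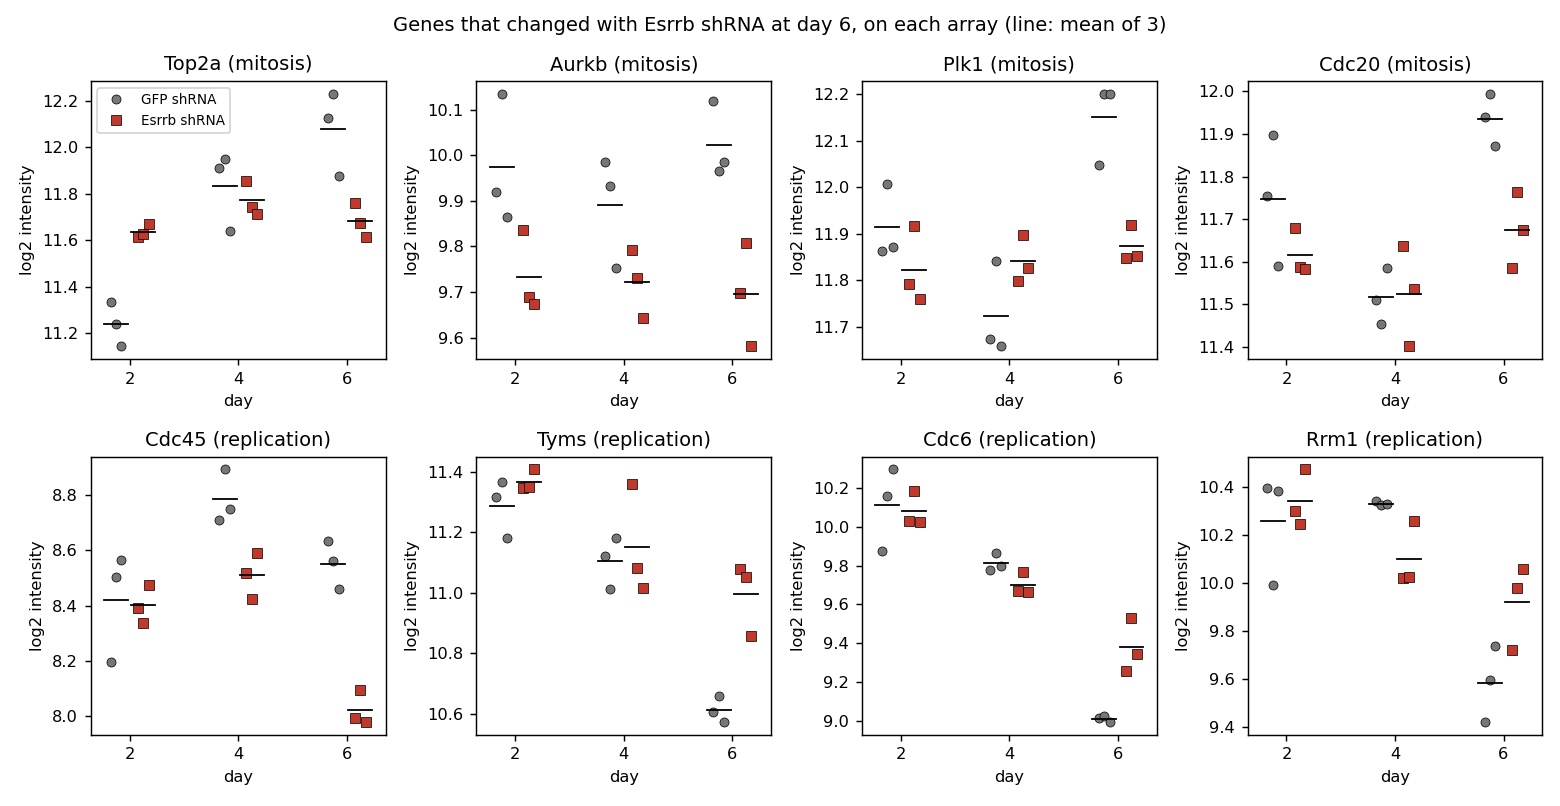
Log2 intensity on each array by day for the 4 mitosis genes (top row) and the 4 replication genes (bottom row) called at day 6, with GFP shRNA as circles, Esrrb shRNA as squares and a line at the mean of 3; each panel has its own axis. At day 6 the squares lie below the circles for Top2a, Aurkb, Plk1, Cdc20 and Cdc45 and above them for Tyms and Cdc6; for Rrm1 the lowest square (9.72) lies just below the highest circle (9.74).

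The difference of the shRNA effect between days was tested for each gene in the same fit. No gene passed between days 2 and 4 (0 of 29, with 2.39% of all target names lower and 2.26% higher). At an unadjusted p under 0.05 in limma, where no share of all target names was counted, 3 were lower and 1 higher. Between days 4 and 6, Plk1 passed as lower and Cdc6 and Rrm1 as higher, beside 7.91% and 6.09% of all. Between days 2 and 6, Mybl2, Top2a and Cdc45 passed as lower and none as higher on the probe used, beside 13.5% and 11.3%. Over these days other probes were called lower for Mybl2 (-0.50), Top2a (-0.56), Birc5 (-0.54 and -0.39), Cdc20 (-0.46 on each) and Mcm7 (-0.52). A Tyms probe was called higher (0.50), and a further Top2a probe gave 0.05 with no call. Another Top2a probe was also called lower between days 4 and 6 (-0.88). With the BeadChip as a block, 1, 5 and 6 genes passed in these 3 comparisons, among them Pcna at 0.62 (adjusted p = 0.00977) and Prim1 at 0.54 (adjusted p = 0.0138) between days 2 and 6. Under that block 489, 1402 and 2261 of the 15162 target names were lower and 532, 1183 and 2022 higher. With median centring 0 of the 29 genes passed between days 4 and 6 and 1, Top2a, between days 2 and 6. Of the 15162 target names, 1106 and 1404 were then lower and 432 and 1262 higher.

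The change over time within each shRNA group was examined next. In GFP shRNA cells 7 of 14 replication genes were lower at day 6 than at day 2 and none higher, against 23.1% and 25.6% of all target names, while 4 of 13 mitosis genes were higher and none lower. In Esrrb shRNA cells 7 of 14 replication genes were lower and none higher, against 17.3% and 19.3% of all, and 1 of 13 mitosis genes, Bub1b, was lower by 0.31 on the log2 scale, a call lost without any 1 of the 3 Esrrb arrays of day 2 or replicate 1 or 3 of day 6 (-0.37 to -0.25). In Esrrb shRNA cells another probe of Birc5 (-0.36) and of Cdc20 (-0.28) was also called lower over this interval. The median change of the replication genes was -0.32 in GFP and -0.37 in Esrrb shRNA cells, and that of the mitosis genes was 0.05 in both, beside medians of -0.01 and 0.00 over all target names. Days after transfection and time in culture cannot be told apart.

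Pcna had the largest fall over time in GFP shRNA cells, from a median log2 intensity of 9.32 (9.31 to 9.83) at day 2 to 8.24 (8.14 to 8.38) at day 6, a change of -1.23 ± 0.17 (limma adjusted p = 6.04e-06). In Esrrb shRNA cells it went from 8.98 (8.77 to 9.48) to 8.47 (8.16 to 8.75), a change of -0.62 ± 0.17 (adjusted p = 0.00809). Without Esrrb replicate 2 of day 2 or replicate 1 of day 6 the fall in Esrrb shRNA cells missed the threshold (-0.77 to -0.41 over all arrays left out). The arrays of day 6 lay below those of day 2 in both groups. Cdc6 fell to 46.6% of its day 2 level in GFP and 61.4% in Esrrb shRNA cells. On the log2 scale, Rrm2 fell by 0.73 and 0.65 in GFP and Esrrb shRNA cells and Tyms by 0.67 and 0.37, on the probe used. Another Rrm2 probe was called lower in both groups (-0.55 and -0.38), and a further Rrm2 probe gave -0.01 and 0.28 with no call. Another Tyms probe was called lower in both groups (-0.92 and -0.43), and a further Tyms probe gave -0.14 and -0.24 with no call. Rrm1 fell by 0.67 and 0.42 in GFP and Esrrb shRNA cells, and Mcm2 by 0.39 and 0.50. The fall of Rrm1 in Esrrb shRNA cells was lost without Esrrb replicate 3 of day 2 or replicate 1 of day 6 (-0.49 to -0.32). Prim1 fell by 0.91 in GFP shRNA cells and stood at -0.37 with no call in Esrrb shRNA cells. Cdc45 was called lower over time in Esrrb shRNA cells (-0.38) and stood at 0.13 with no call in GFP shRNA cells. Mcm4, Mcm5, Mcm6, Mcm7, Cdt1 and Fen1 had no call over this interval in either group on the probe used, with values from -0.25 to 0.09. A second Mcm7 probe was called higher in GFP shRNA cells (0.36, adjusted p = 0.00193) and a second Mcm6 probe lower (-0.64, adjusted p = 0.0345).

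Top2a rose over time in GFP shRNA cells by 0.84 ± 0.10 (adjusted p = 1.47e-06), with 0.05 and no call in Esrrb shRNA cells. Its 2 other probes gave -0.08 with no call and 0.41 with a call in GFP shRNA cells. Ccnb1 rose by 0.34, Aurka by 0.31 and Plk1 by 0.24 in GFP shRNA cells, against 0.10, 0.13 and 0.05 with no call in Esrrb shRNA cells. Leaving out single arrays of GFP shRNA ended the call of Ccnb1 without replicate 1 of day 2 (0.27 to 0.40), that of Aurka without replicate 1 or 3 of day 2 or any of day 6 (0.21 to 0.48), and that of Plk1 without replicate 1 or 3 of day 2 or 2 or 3 of day 6 (0.21 to 0.29). Other probes were called higher for Ccnb1 (0.42), Cdc20 (0.27) and Birc5 (0.23) and lower for Ttk (-0.44). With median centring Top2a alone of the 4 passed. These comparisons share the day 6 GFP arrays with the shRNA comparison of day 6, so the rise in GFP shRNA cells and the lower value with Esrrb shRNA at day 6 are not independent. Of the 4 rises only that of Top2a differed between the shRNA groups from day 2 to day 6 by the test given above, and that test missed the threshold for Ccnb1 (-0.24, adjusted p = 0.272), Aurka (-0.19) and Plk1 (-0.19, adjusted p = 0.304).

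**Figure D4:**
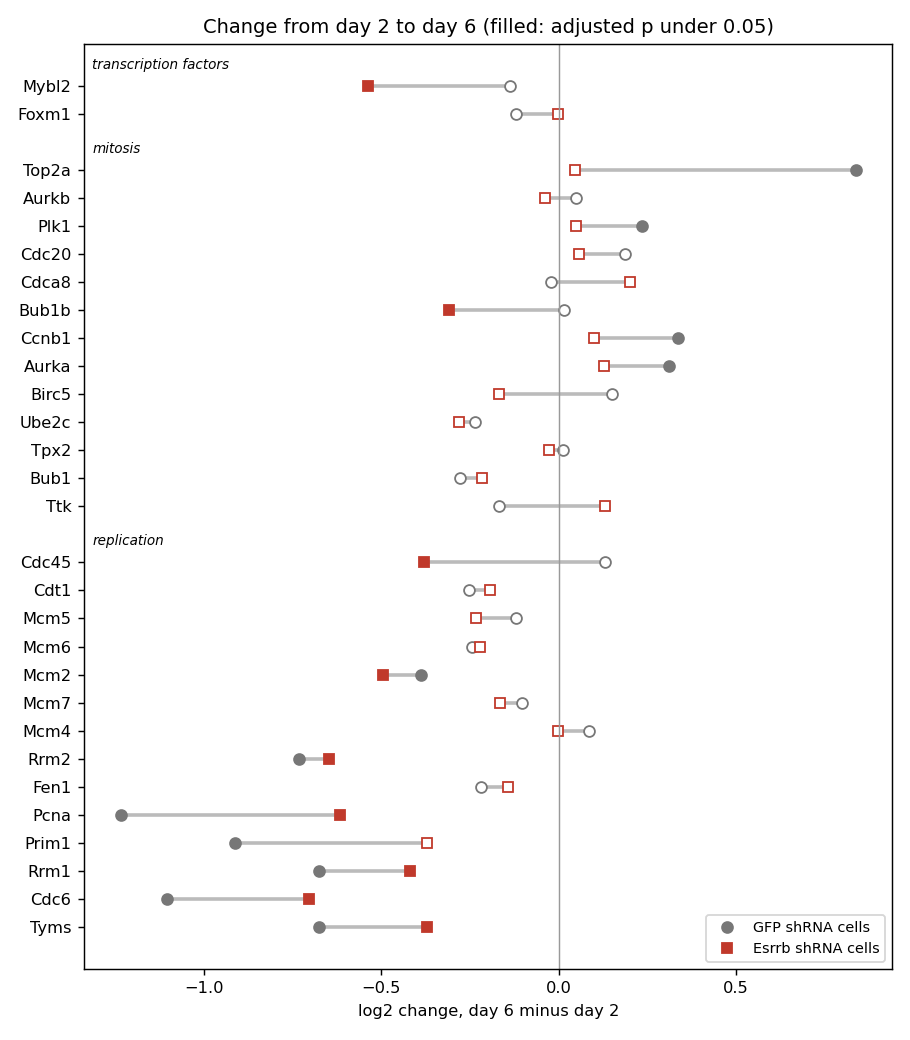
Log2 change from day 2 to day 6 in GFP shRNA cells (circles) and Esrrb shRNA cells (squares) for each of the 29 genes by role, with filled symbols at an adjusted p under 0.05 and a grey bar joining the 2 values. Replication genes reach -1.23 for Pcna in GFP shRNA cells, and the largest rise is 0.84 for Top2a in GFP shRNA cells, where the Esrrb value is 0.05.

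The shorter intervals were tested too. In GFP shRNA cells 7 of 14 replication genes were lower at day 6 than at day 4, and 4 of 13 mitosis genes, Ccnb1, Plk1, Cdc20 and Cdca8, were higher by 0.37 to 0.51 (16.2% of all target names lower and 19.1% higher). Other probes were called higher for Ccnb1 (0.37), Cdc20 (0.31) and Top2a (0.48), while another of Cdc20 (0.22) and of Cdca8 (0.11) had no call. Between days 2 and 4 in GFP shRNA cells, Cdc6 and Pcna were lower, Cdc45 and Mcm4 higher, Cdca8 and Ube2c lower and Top2a higher on the probe used (10.7% and 12.6% of all). The other probes of Cdca8 (0.003), Top2a (-0.07 and -0.06) and Mcm4 (0.13) had no call, and a second Mcm7 probe was called higher (0.49). In Esrrb shRNA cells Cdc6 and Rrm2 were lower at day 4 than at day 2 (8.61% of all lower, 10.6% higher), and Cdc6, Mcm2 and Cdc45 were lower at day 6 than at day 4 (10.4% lower, 10.3% higher). The other Rrm2 probes gave -0.17 and 0.31 with no call between days 2 and 4. A second Mcm7 probe was called higher (0.30) between days 2 and 4 and lower (-0.47) between days 4 and 6. No mitosis gene was called between neighbouring days in Esrrb shRNA cells on the probe used, but other probes of Birc5 (-0.32 and -0.29) and Top2a (-0.40) were called lower between days 4 and 6.

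Of the transcription factors, Mybl2 fell in Esrrb shRNA cells between days 2 and 4 by 0.49 ± 0.09 on the log2 scale (adjusted p = 0.000507) and showed -0.12 with no call in GFP shRNA cells. Its second probe did not pass in Esrrb shRNA cells, at -0.21 (adjusted p = 0.138) between days 2 and 4 and -0.22 (adjusted p = 0.0695) between days 2 and 6, where the first probe gave -0.54 and passed. From day 2 to day 6 in GFP shRNA cells the second probe was called higher at 0.27, while the first gave -0.14 with no call, so the course of Mybl2 over time depended on the probe. Foxm1 fell by 0.35 ± 0.10 between days 2 and 4 in GFP shRNA cells (adjusted p = 0.0176), with -0.21 and no call in Esrrb shRNA cells.

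Lists of further genes of the same processes, put together from textbook roles with earlier results of these data known, were counted in the same fit. Of 52 other mitosis genes 45 were tested, of which 0 were called at day 2 (limma, 2 lower and 3 higher at an unadjusted p under 0.05), 4 were lower and 1 higher at day 4, and 15 were lower and 3 higher at day 6, with a day 6 median of -0.20. Over all target names 10.8% were lower and 12.4% higher at day 4, and 20.7% and 19.9% at day 6. Median centring left 0 lower at day 4 and 8 lower at day 6, beside 807 and 2405 of the 15162 target names. With single arrays left out, 1 to 4 were lower at day 4, the fewest among fits without GFP replicate 1 or 2 or Esrrb replicate 3 of day 4, and 1 to 4 were higher at day 6, where GFP replicate 1 and Esrrb replicate 2 of day 6 moved the count by over 1.5 times. Cdc25c, a phosphatase that activates the mitotic kinase Cdk1, was lower at day 6 by 0.97 on the log2 scale (adjusted p = 1.78e-07), with arrays at 7.81 to 8.05 against 8.86 to 8.98. Sgol2 (shugoshin 2, which protects centromeric cohesion) and Cdca3 both stood at -0.61, the condensin subunit Ncapd2 at -0.53, Ckap2, a microtubule-associated protein, at -0.42 and the phosphatase Cdc25b at -0.36, all called. At day 4, Cdc25b (-0.43), Spc25 of the kinetochore (-0.38) and Ncapd2 (-0.34) were lower and Ckap2 (0.37) higher; the calls of Spc25 and Ncapd2 were each lost without any 1 of 4 arrays of day 4 (-0.49 to -0.27 and -0.41 to -0.29), and that of Ckap2 without Esrrb replicate 1 of day 4. The day 6 call of Cdc25b was lost without GFP replicate 3 of day 6 (-0.44 to -0.29).

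Of 42 other replication genes 40 were tested, with 0 called at day 2 (limma, 1 lower and 6 higher at an unadjusted p under 0.05), 3 lower at day 4, and 2 lower and 3 higher at day 6, with a day 6 median of 0.00, beside the same shares of all target names. With single arrays left out, 2 to 5 were higher at day 6 (5 without GFP replicate 3 or Esrrb replicate 2 of day 2). Median centring left 0 lower at day 4 and 1 lower at day 6, beside 807 and 2405 of the 15162 target names. The lower genes were the DNA polymerase delta subunit Pold2, at -0.47 and -0.66 on days 4 and 6, the RNase H2 subunit Rnaseh2a, at -0.39 and -0.36, and at day 4 thymidine kinase Tk1 (-0.33, lost without any 1 of 5 arrays of day 4). Dut, the dUTPase that feeds thymidylate synthesis, was higher at day 6 by 0.62, with arrays at 8.52 to 8.78 against 7.99 to 8.14, and the origin recognition subunit Orc4 by 0.63. Over time 16 of the 40 fell and 2 rose from day 2 to day 6 in GFP shRNA cells, and 15 fell and 1 rose in Esrrb shRNA cells. Of all target names 23.1% fell and 25.6% rose in GFP shRNA cells, and 17.3% fell and 19.3% rose in Esrrb shRNA cells. Under median centring 8 and 4 of the 40 fell in GFP and Esrrb shRNA cells, beside 2343 and 1496 of the 15162 target names. The other mitosis genes had 7 falls and 15 rises in GFP and 5 of each in Esrrb shRNA cells, with 1 fall in each under median centring and with 4 to 8 and 3 to 6 falls when single arrays were left out (fewest without GFP replicate 2 or Esrrb replicate 1 of day 2).

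Of 19 E2F and DREAM regulators, the factors that switch both programmes on and off, 11 were tested. E2f2, an activating E2F, was lower at all 3 days, by 0.74, 1.42 and 0.95 on the log2 scale (adjusted p from 1.69e-09 to 3.59e-05), with arrays at 8.04 to 8.14 against 8.64 to 9.04 at day 2, 7.21 to 7.28 against 8.60 to 8.75 at day 4, and 6.92 to 7.18 against 7.94 to 8.07 at day 6. E2f1, the founding activator of S phase genes, had no call at days 2 and 4 and was lower by 0.65 at day 6 (adjusted p = 2.62e-06). E2f3, another activator, stood at 0.14, 0.30 and 0.88, called higher at days 4 and 6. E2f7, an atypical E2F that represses, stood at -0.26, 0.46 and 0.78, with the same calls. Rb1, the retinoblastoma protein that holds E2Fs in check, was higher at days 2 and 4 (0.48 and 0.45) and at 0.04 with no call at day 6, and the E2F partner Tfdp2 was higher at day 4 (0.40). In all, 1 of the 11 was lower and 1 higher at day 2, 1 lower and 4 higher at day 4, and 2 lower and 3 higher at day 6, beside 5.43% and 6.41%, 10.8% and 12.4%, and 20.7% and 19.9% of all target names. The remaining gene higher at day 6 was the other E2F partner, Tfdp1 (0.67, limma adjusted p = 0.00014). The 4 higher at day 4 became 2 to 4 with single arrays left out: E2f3 lost its call without GFP replicate 1 or Esrrb replicate 1 or 2, E2f7 without GFP replicate 3 or Esrrb replicate 2, and Tfdp2 without GFP replicate 2 or 3 or Esrrb replicate 3, all of day 4.

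**Figure D5:**
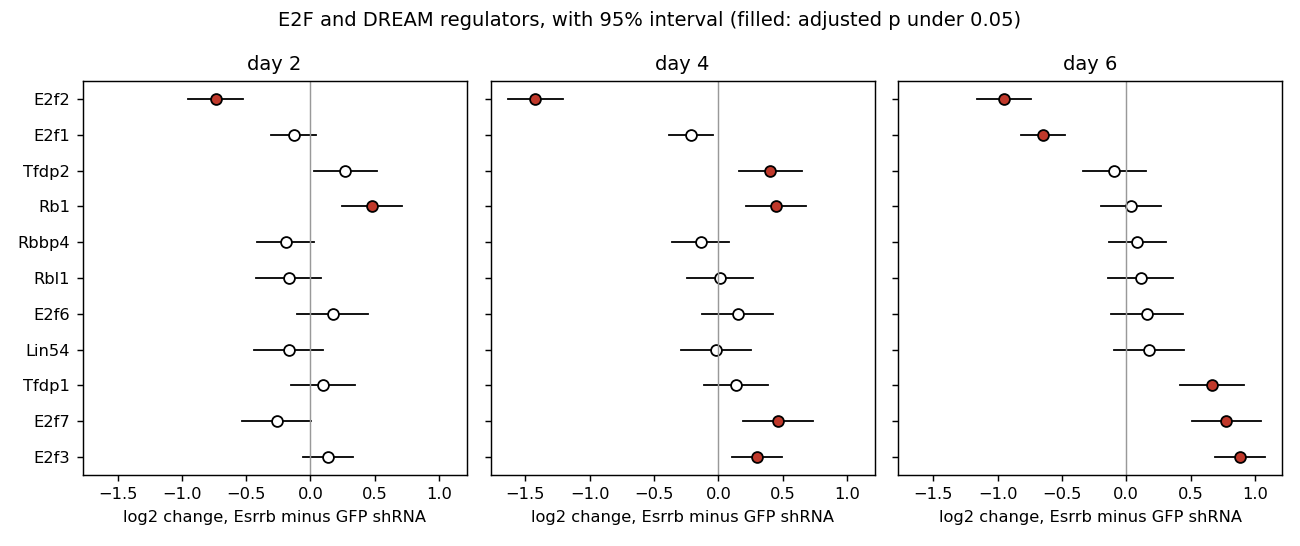
Log2 change of the 11 tested E2F and DREAM regulators with Esrrb against GFP shRNA at days 2, 4 and 6 (points) with 95% intervals (lines), ordered by the day 6 value; filled points passed an adjusted p of 0.05. E2f2 is filled at -0.74, -1.42 and -0.95, and E2f3 and E2f7 move to 0.88 and 0.78 by day 6.

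The 9 genes outside these results are accounted for as follows. Ccnb2, Nek2, Kif11 and Pola1 had probes that were detected on none of the 18 arrays, and the Ccna2 probe was detected on 7 of 18 arrays and on all 3 arrays of no group. Kif20a, Mcm3, Gins1 and Gins2 had no probe under these names and were not analysed here. Of 62 probes of the 34 genes 46 passed the filter, and 12 genes had more than 1 passing probe. Probes listed under older RefSeq names of Gins1 and Gins2 were read after their values were seen: 2810418N01Rik was lower by 0.37 at day 4 and 0.23 at day 6 on the log2 scale, and 4833427B12Rik by 0.39 at day 6, with adjusted p from 0.00264 to 0.0312 in limma.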

How the data were processed

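RNA of 18 cultures was hybridised to Illumina MouseWG-6 V1.1 arrays. The deposited raw table gave, per the file headers (BeadStudio 3.2.6), an average intensity, a detection score and a bead number for each of 46643 probes and array, with no normalization. Detection p was taken as 1 minus the detection score, and the deposited bead numbers, of unit other, served only to describe precision, which the number of arrays limits. The authors' normalized table, with linear intensity of unstated normalization, shared 0 identifiers with the raw table, so its 46632 rows could not be named.

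Intensities of all 46643 probes were corrected by normexp with detection p-values (offset 16), quantile normalized and put on the log2 scale in limma 3.58.1 (R 4.3.3). After that, 336 control or non-mouse probes were left out. The filter kept a probe if some group had it detected (p under 0.05) on its 3 arrays. The kept probe with the highest mean stood for its target name, leaving 15162 names. The model held 6 groups and all 18 arrays, with 12 contrasts and Benjamini-Hochberg adjustment over all names within each contrast. The test was tried on simulated data. Of 33990 target names left, 16076 were current RefSeq symbols, 6654 were updated through RefSeq synonyms for display and 11260 were kept.

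Alternatives were background correction, normalization, filter, probe choice, arrays in the fit, replicate block and leaving out each array. Arrays with the same replicate number came from the same BeadChip, per the file headers. Their deviations from group means correlated at -0.01 to 0.31 (median 0.13, 34 of 45 pairs over 0.1), against a median of -0.07 for 90 pairs of different number. Values on every array are given for the transcription factors, for the 4 largest and 2 smallest day 6 changes of each role and for genes whose effect differed between days, and up to 4 called genes per list and day are named, with Tfdp1 added. The genes, lists and markers, which also held extraembryonic endoderm (summed intensity of all 7 markers, undetected Afp included, 1908 to 2017 with GFP and 2129 to 2210 with Esrrb shRNA at day 6), were chosen with earlier results of these data known. Of the 5 endoderm markers tested, 2 were called lower and 2 higher at day 6, beside 20.7% and 19.9% of all target names.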

Additional observations from a re-analysis of the deposited data

Results flagged for a closer look

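These results stand out because the effect of the Esrrb shRNA differed between 2 days, by a test of that difference in limma (adjusted p under 0.05). With 3 arrays a group, no single array was tested for standing apart. Among the 29 genes, on the probe used, the effect at day 6 minus that at day 2 was -0.40 for Mybl2, -0.79 for Top2a and -0.51 for Cdc45. The effect at day 6 minus that at day 4 was -0.39 for Plk1, 0.48 for Cdc6 and 0.57 for Rrm1. Leaving out single arrays ended the call of Mybl2 in 4 of 18 cases, Plk1 in 9, Cdc6 in 8 and Rrm1 in 9, and never that of Top2a or Cdc45.

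Among the other mitosis genes, Cdc25c differed by -0.74 between days 4 and 6 and by -0.86 between days 2 and 6, and Ckap2 by -0.79 and -0.67. Between days 2 and 6, Cdca3 differed by -0.59, Ncapd2 by -0.55 and Sgol2 by -0.52. Among the other replication genes, Dut differed by 0.71 between days 4 and 6 and by 0.69 between days 2 and 6, Orc4 by 0.66 and 0.81, and Pold2 by -0.47 between days 2 and 6.

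Among the E2F and DREAM regulators, E2f2 differed by -0.69 between days 2 and 4 and by 0.47 between days 4 and 6. E2f3 differed by 0.58 between days 4 and 6 and by 0.75 between days 2 and 6, and E2f1 by -0.43 and -0.51. E2f7 differed by 0.73 between days 2 and 4 and by 1.04 between days 2 and 6, and Rb1 by -0.44 between days 2 and 6. Tfdp1 differed by 0.53 between days 4 and 6 and by 0.57 between days 2 and 6. With single arrays left out, the difference of Rb1 lost its call in 10 of 18 cases (adjusted p up to 0.114), that of E2f2 between days 4 and 6 in 9, that of Pold2 in 8 and that of E2f7 between days 2 and 4 in 5. The genes of these 3 lists were named because they were called on at least 1 day, so their differences describe genes chosen for a change.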

How the results depend on the processing

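The fall of Mybl2 kept its direction and its call at all 3 days under every alternative run, with ranges over arrays left out of -0.85 to -0.77, -1.22 to -1.15 and -1.26 to -1.15. No value of the genes named in the text reversed a call. Median centring set the median of all target names at 0.03, 0.10 and 0.03 at days 2, 4 and 6 and moved the share of higher among all calls at day 4 from 53.4% to 76.1% (1637 lower and 1879 higher against 807 and 2568), and between days 4 and 6 from 43.5% to 28.1% of the calls. With it the counts of mitosis genes were 0 lower at day 4 (1 in the main setting), 0 lower at day 6 (4), 1 higher over time in GFP shRNA cells (4) and 0 lower over time in Esrrb shRNA cells (1), the count of replication genes lower over time in Esrrb shRNA cells was 4 (7), and 0 and 1 effects differed between days 4 and 6 and days 2 and 6 (3 and 3). With median centring 2405 of the 15162 target names were lower at day 6. From day 2 to day 6, 4328 were higher in GFP and 1496 lower in Esrrb shRNA cells. The cause of these shifts was not tested.

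Without background correction 2 replication genes were lower at day 4 (0) and 2 and 5 effects differed between days 2 and 4 and days 2 and 6 (0 and 3). Of the 15162 target names, 1739 were then lower at day 4. The effects of 496 and 2195 names were lower and those of 448 and 1826 higher between these days. With only probes detected on all 18 arrays 1 replication gene was lower at day 4, beside 1486 of 11456 target names. With no filter 0 mitosis genes were lower over time in Esrrb shRNA cells. The mean of all detected probes gave 0 mitosis genes higher at day 2 (1), 1 replication gene lower at day 4, 1 and 2 mitosis genes lower over time in GFP and Esrrb shRNA cells (0 and 1), and 5 and 6 effects that differed between days 4 and 6 and days 2 and 6. With that mean, 1722 of the 15162 target names were lower at day 4, and 3670 and 2743 over time in GFP and Esrrb shRNA cells. The effects of 1226 and 2060 names were lower and those of 978 and 1761 higher between those days. Fits on only the arrays compared gave 0 mitosis genes lower and 0 higher at day 2 and 2 higher over time in GFP shRNA cells. The replicate block gave 1 replication gene lower at day 2 (0), 1 mitosis gene lower over time in GFP shRNA cells (0), and 1, 5 and 6 effects that differed between days 2 and 4, 4 and 6, and 2 and 6 (0, 3 and 3). It moved no other of these counts by over 1.5 times. Under the block 1051 of the 15162 target names were lower at day 2 and 3835 over time in GFP shRNA cells. The effects of 489, 1402 and 2261 names were lower and those of 532, 1183 and 2022 higher between those days.

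Leaving out 1 array gave ranges of 0 to 1 mitosis genes lower and 0 to 1 higher and 0 to 1 replication genes lower at day 2, 0 to 1 mitosis and 0 to 1 replication genes lower at day 4, and 2 to 4 mitosis genes lower and 2 to 5 replication genes higher at day 6. The 2 mitosis genes came without GFP replicate 1 or 2 or Esrrb replicate 3 of day 6, and the 5 replication genes without Esrrb replicate 1 of day 6. Over time the ranges were 0 to 1 mitosis genes lower and 1 to 5 higher in GFP shRNA cells, 0 to 1 mitosis genes lower in Esrrb shRNA cells, and 7 to 9 and 6 to 8 replication genes lower in GFP and Esrrb shRNA cells. Effects that differed numbered 0 to 1 between days 2 and 4, 0 to 3 between days 4 and 6 and 2 to 7 between days 2 and 6. The authors' normalized values, put through the same model, called 724 rows lower and 1141 higher at day 2, 1505 and 2259 at day 4, and 3515 and 4382 at day 6, but could not be run for named genes. Dim probes such as those of Bub1 and Ttk lie near background, where log2 changes are understated.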
